A study of Rattus norvegicus with 8 samples.

Results

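The genes described here are 45 enzymes and partner proteins that write, erase or read chemical marks on histones and DNA. They were selected by gene symbol with a rule that uses no measured value, although the list was drawn up with earlier results of these data known. It holds 11 classical histone deacetylases, 6 sirtuins, 6 histone acetyltransferases, 3 DNA methyltransferases, 3 TET dioxygenases, 2 methyl-CpG readers, 9 histone methyltransferase genes including Polycomb subunits, and 5 histone demethylase and corepressor genes. Of the 45, the count table of 17337 genes lists 35, and all 35 had enough reads to be tested among 12014 genes. The other 10 (Hdac6, Hdac7, Sirt1, Ep300, Kat2b, Tet1, Tet2, Tet3, Suz12 and Kmt2a) were not found under a current or older symbol and were not analysed here.

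The mRNA came from the striatum of 8 male Sprague-Dawley rats with WT as the labelled genotype. In the METH group, 4 rats pressed a lever for intravenous methamphetamine (METH), a psychostimulant that raises extracellular dopamine. In the saline group, 4 rats had the same food training, jugular catheter surgery and daily sessions, but received saline only. The study's methods describe selection of rats with stable lever pressing at the end of training. The 4 METH rats were chosen from a larger number than the 4 saline rats. The age of the animals is not given in the sources used here. Each library is a separate rat according to its label, and whole striatal tissue was used, so that every value is an average over its neurons and glia.

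DNA in the nucleus is wound around histones. Acetyltransferases such as CBP (encoded by Crebbp) add acetyl groups to histone tails, which is associated with active transcription, and deacetylases of the HDAC and sirtuin families remove them. Methyl groups on histones can mark active or silent chromatin depending on the residue, and methylation of cytosine by DNA methyltransferases is largely associated with silencing at promoters. In striatal neurons, class IIa deacetylases such as HDAC5 shuttle between cytoplasm and nucleus with neuronal activity, and this family has long been studied in responses to psychostimulants. The mRNA levels given here do not measure enzyme activity, location or histone marks.

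The total count lay between 18135939 and 21211920 reads per rat, and the 35 enzyme genes held between 0.310% and 0.337% of them, or 57753 to 70715 reads. Levels are given as CPM, counts scaled to library size with a correction for library composition, and are compared between rats and not between genes, because transcript length is not taken into account. Summed levels of 8 striatal projection neuron markers (among them Drd1, Drd2 and Ppp1r1b) were 13753 to 14435 CPM in saline rats and 14530 to 18352 CPM in METH rats, so that these markers were abundant in every rat and their sums did not overlap between groups. Of these 8 markers, 3 were at an unadjusted p under 0.05, higher in METH rats, beside 6.26% of all genes tested, and 0 passed the adjusted test of edgeR or DESeq2. Taken alone, 0 of the 8 markers were without overlap between groups. Ppp1r1b had the highest mean level of them (7834 CPM) and a log2 fold change of METH against saline of 0.25. This change was positive in 6 of the 8 and negative in Drd1 (-0.03) and Adora2a (-0.01). Summed oligodendrocyte markers overlapped between groups, at 13750 to 19685 CPM in saline and 12894 to 19216 CPM in METH rats, as did summed astrocyte markers at 1588 to 1873 CPM and 1609 to 1929 CPM. All 6 microglial markers had a lower fitted level in METH rats, with sums of 236 to 275 CPM in saline and 198 to 243 CPM in METH rats, and all 5 endothelial markers did too, with sums of 382 to 550 CPM and 381 to 410 CPM. Among all marker lists, edgeR called the microglial receptor gene Cx3cr1 (lower in METH rats), and DESeq2 called Cx3cr1 and the astrocyte connexin gene Gjb6 (higher in METH rats). Choroid plexus markers with enough reads (2 of 5) summed to 3.29 to 6.22 CPM over all rats. Of 4 cortical excitatory neuron markers, Slc17a7 alone had enough reads to be tested, and the rat saline 1 stood apart at 65.8 CPM against 3.12 to 12.2 CPM in the other rats. The rat METH 3 also stood apart on the first principal component, which held 26.4% of the variance. METH 3 scored 39.5 on it, against 0.257 to 5.29 in the other METH rats and -24.6 to -4.175 in saline rats. These scores did not overlap between groups. METH 3 had the highest level of all rats for 13 of the 35 enzyme genes, and the same count over all genes was not made. In bulk tissue, fewer cells of a type and less RNA per cell cannot be told apart, and the part of these differences in the results below was not tested.

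The question put to the data was whether levels of these enzymes differed between METH and saline rats. The quasi-likelihood test of edgeR was run over all 12014 genes, and a gene was called when its Benjamini-Hochberg false discovery rate (FDR) was under 0.05 and its mean log2 CPM over 1. None of the 35 enzyme genes was called (0 of 35), beside 0.516% of all genes tested (62 genes). At an unadjusted p under 0.05, 5 enzyme genes were higher in METH rats (Hdac5, Rcor1, Crebbp, Sirt7 and Hdac10) and 0 were lower, beside 6.26% and 4.88% of all genes. In 3 of these genes (Hdac5, Rcor1 and Crebbp) every METH rat was above every saline rat, and in 0 enzyme genes was every METH rat below, beside 3.75% and 2.65% of all genes. DESeq2, another test for counts, called 1 enzyme gene, Hdac5, beside 1.58% of the genes to which it gave an adjusted p. The count of 5 fell to 2 (Hdac5 and Rcor1) when saline 2 or METH 3 was left out, to 3 higher genes (Hdac5, Crebbp and Rcor1) when saline 3 or saline 4 was left out, and to 3 (the same genes) when counts were scaled by their totals. The count of 3 higher genes without overlap became 5 without saline 1 and 5 without METH 1, where Hdac1 was also lower without overlap. Groups of fewer rats separate more easily. The shares over all genes were not counted in fits without a rat or with total-count scaling.

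Over the 35 enzyme genes, the log2 fold change of METH against saline had a median of 0.05 and ran from -0.44 (Hdac9) to 0.37 (Hdac10). Its median over all genes tested was -0.01. The fold change was positive in 23 enzyme genes and negative in 12, or 65.7% positive beside 48.6% of all genes, and with scaling by total counts 19 were positive, or 54.3% beside 40.0% of all genes. With a rat left out, the fewest positive genes were 20 without METH 3, or 57.1% beside 47.9%. The most were 25 without saline 2 or METH 4, or 71.4% beside 49.2% and 48.8%. The size of the log2 fold change had a median of 0.11 in enzyme genes and 0.12 in all genes, and 33 of 35 enzyme genes, beside 83.3% of all genes, lay under 0.3 in size. The 95% interval of the log2 fold change lay within 0.5 of no change in 31 of the 35 genes. It lay within 1 in 34, the exception being Dnmt3b, which had very few reads. The median coefficient of variation was 7.77% in saline and 9.02% in METH rats for enzyme genes, against 11.4% and 12% for all genes. Neither this variation nor the size of fold changes was compared with genes of matched level.

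**Figure D1:**
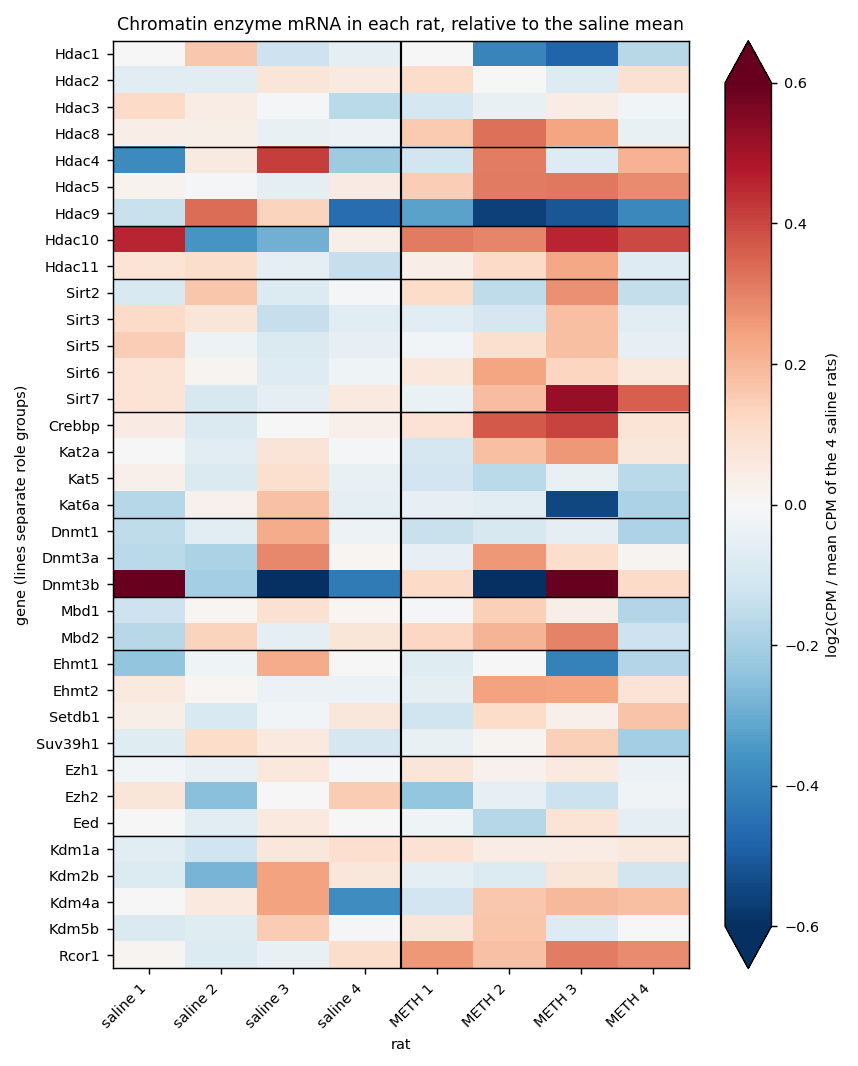
Level of each of the 35 enzyme genes (rows, grouped by role) in each of the 8 rats (columns), as log2 of the CPM over the mean CPM of the 4 saline rats; red is above and blue below that mean, and colours end at 0.6 in either direction. Hdac5, Rcor1 and Crebbp are above the saline mean in all 4 METH rats, while Dnmt3b, with few reads, swings between extremes.

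**Figure D2:**
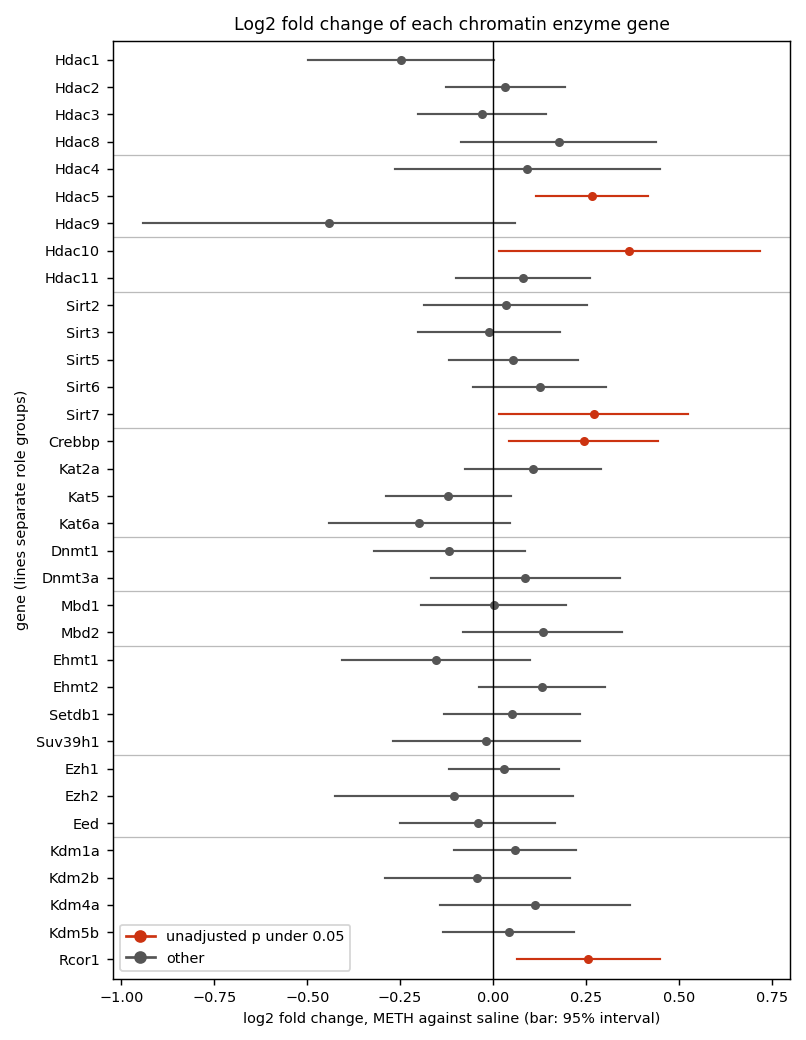
Log2 fold change of METH against saline (points) with its 95% interval (bars) for 34 enzyme genes, with 4 rats in each group. Dnmt3b is left out because its interval runs from -1.11 to 1.39, and the 5 genes in red are those at an unadjusted p under 0.05, all on the positive side.

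The 3 genes whose groups did not overlap are shown first with the DNA before their start sites, because cyclic AMP signalling downstream of dopamine receptors acts in part through the cyclic AMP response element (CRE). Each sequence is the 250 bases upstream of a RefSeq transcription start site on the build GRCr8, whereas reads were counted on rn6. Hdac5 lies on the minus strand, with its window at chr10:87688055-87688304. Rcor1 is on the plus strand at chr6:135890601-135890850, and Crebbp on the plus strand at chr10:11842090-11842339. Capitals mark TGACG, the core of the CRE.
Hdac5: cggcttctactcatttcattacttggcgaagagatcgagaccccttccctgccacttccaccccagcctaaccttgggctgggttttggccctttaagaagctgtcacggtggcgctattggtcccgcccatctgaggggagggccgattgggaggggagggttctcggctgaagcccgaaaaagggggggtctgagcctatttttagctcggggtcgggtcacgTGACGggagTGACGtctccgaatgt
Rcor1: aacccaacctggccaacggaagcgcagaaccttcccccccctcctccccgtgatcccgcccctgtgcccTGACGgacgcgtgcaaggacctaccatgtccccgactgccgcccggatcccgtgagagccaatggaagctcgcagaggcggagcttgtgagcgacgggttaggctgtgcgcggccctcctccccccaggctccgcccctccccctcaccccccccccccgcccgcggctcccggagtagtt
Crebbp: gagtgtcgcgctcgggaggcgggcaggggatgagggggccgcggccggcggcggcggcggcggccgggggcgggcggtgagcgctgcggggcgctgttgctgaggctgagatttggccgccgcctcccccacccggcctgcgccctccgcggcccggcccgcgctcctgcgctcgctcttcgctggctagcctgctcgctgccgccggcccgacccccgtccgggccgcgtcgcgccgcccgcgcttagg
The Hdac5 window held 2 copies of the core, the Rcor1 window 1 and the Crebbp window 0. The windows of Sirt7 and Hdac10, the other enzyme genes at an unadjusted p under 0.05, held 0 each. The core was not limited to higher genes. Windows of Kat5 and Hdac1, both with negative fold changes, held 2 and 1 copies, and a relation to the fold change was not tested. The Crebbp window was the richest of the 3 printed here in CpG, with 43 CpG dinucleotides and 82.0% G or C, against 15 CpG and 58.8% for Hdac5 and 22 CpG and 71.2% for Rcor1.

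RefSeq windows were matched for 29 of the 35 enzyme genes, giving 30 windows. The core TGACG, searched on both strands, was in 12 of the 30 windows (40.0%), beside 18.2% of all 33465 promoter windows in the same table. Overlapping windows of Suv39h1, with 3 and 2 copies, both entered this count. The full element TGACGTCA, which contains the core, was in 0 of 30 windows beside 1.59% of all windows. Of the motifs bound by activity-induced factors, the EGR site GCGTGGGCG was in 1 window (Ehmt2, 3.3% beside 0.48%) and GCGGGGGCG in 0 (beside 2.45%), while the AP-1 site TGANTCA was in 1 (Kdm4a, 3.3% beside 6.34%). The windows of enzyme genes were rich in CpG, with a median of 16.5 CpG and 61.6% G or C, against medians of 5 and 51.2% over all windows. The core itself holds a CpG, and its share was not compared at matched CpG content. A match in these letters is a description and not a bound site.

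Class IIa deacetylases are the activity-regulated group, and Hdac5 had the lowest p of all enzyme genes. Hdac5 was at 210, 205, 198 and 214 CPM in saline 1 to 4 and at 229, 257, 258 and 251 CPM in METH 1 to 4. All METH rats were above all saline rats, with METH 1 closest to the saline range. The means were 206.7 ± 6.64 CPM (SD, n = 4) in saline and 248.6 ± 13.4 CPM (SD, n = 4) in METH rats, and METH was higher by 20.3%. Its log2 fold change was 0.27 (SE 0.07, 95% interval 0.12 to 0.42) with an edgeR quasi-likelihood FDR of 0.155, a DESeq2 adjusted p of 0.0132 and an exact two-sided permutation p of 0.0286, the smallest that 70 labelings of 8 rats allow. This permutation p only restates the lack of overlap, and it is the same below for Crebbp and Rcor1. In fits without 1 rat, Hdac5 kept a log2 fold change of 0.25 to 0.30. The adjusted p of Hdac5 over all alternatives ran from 0.0132 to 0.487. Hdac4, of the same class, was at 14.5 to 25.2 CPM in saline and 17.5 to 23.4 CPM in METH rats, so that the METH range sat inside the saline range. Hdac9, singled out after its value was seen as the most negative fold change, had means of 4.28 ± 0.985 and 3.15 ± 0.242 CPM (SD, n = 4 each) and a log2 fold change of -0.44 (SE 0.23, edgeR quasi-likelihood FDR 0.488). Without saline 4 the groups of Hdac9 did not overlap, and its log2 fold change was -0.57 with an FDR of 0.519.

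**Figure D3:**
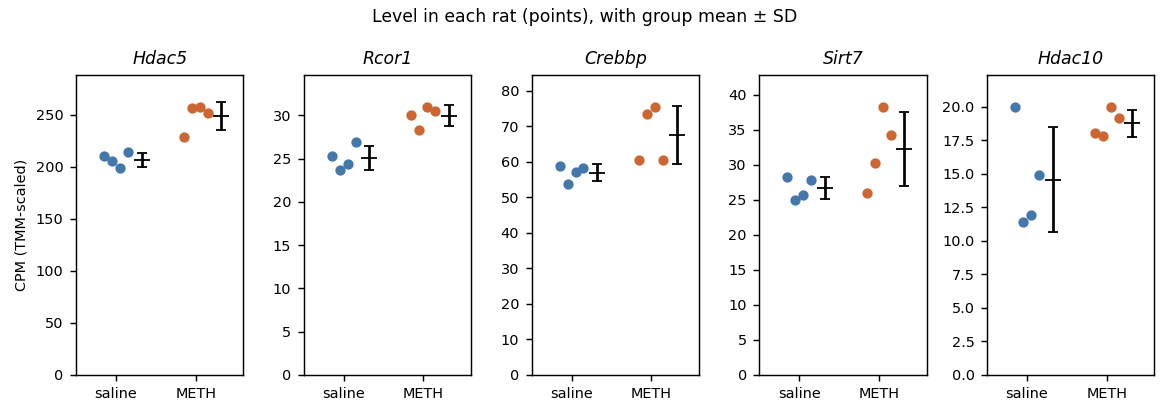
CPM in each rat (points, 4 saline in blue and 4 METH in orange) of the 5 enzyme genes at an unadjusted p under 0.05, with the mean and SD of each group beside the points and axes from 0. For Hdac5, Rcor1 and Crebbp the METH points are all above the saline points, while for Sirt7 and Hdac10 the groups overlap.

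Class I deacetylases are nuclear enzymes that work within repressor complexes. Hdac2, the class I gene with the most reads, was at 116, 116, 128 and 127 CPM in saline rats and 132, 122, 116 and 130 CPM in METH rats. The groups covered nearly the same range, and the log2 fold change was 0.03 (SE 0.07, 95% interval -0.13 to 0.19). Hdac1, the close relative of Hdac2 in the same complexes, was singled out after its values were seen. It was at 35.1, 39.2, 32.2 and 33.7 CPM in saline and 35.1, 26.6, 25.1 and 31.2 CPM in METH rats, and METH 1 was within the saline range while the other METH rats were below it. The log2 fold change of Hdac1 was -0.25 (SE 0.12), with an unadjusted p of 0.0512 in the model over all genes (edgeR quasi-likelihood FDR 0.450). With total-count scaling and with limma-voom, Hdac1 was the 1 enzyme gene lower at an unadjusted p under 0.05, and it was so again in the edgeR fits without saline 3 (log2 fold change -0.29) and without METH 1 (-0.34), where the groups did not overlap in the fit without METH 1. The remaining class I genes, Hdac3 and Hdac8, had log2 fold changes of -0.03 and 0.18, neither past the test.

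Hdac10, a class IIb enzyme best known as a polyamine deacetylase, had the most positive log2 fold change of all enzyme genes. It was at 19.98, 11.4, 11.9 and 14.9 CPM in saline and 18.1, 17.8, 19.99 and 19.1 CPM in METH rats. The METH rats were close together, and saline 1 alone among saline rats was as high as they were. The means were 14.5 ± 3.93 and 18.7 ± 1.01 CPM (SD, n = 4 each), and the log2 fold change was 0.37 (SE 0.16, edgeR quasi-likelihood FDR 0.428, exact permutation p 0.114). Without saline 1, the highest saline rat for Hdac10, the log2 fold change was 0.56 with an unadjusted edgeR p of 0.0013 and an FDR of 0.144. Without saline 2, the lowest, it was 0.27 with an unadjusted edgeR p of 0.128. Saline 1 was also the rat with the high cortical marker, and a link to its Hdac10 level was not tested. Hdac11, the single class IV enzyme, was at 684, 696, 620 and 587 CPM in saline and 665, 699, 760 and 612 CPM in METH rats. These ranges overlapped, with METH 3 highest, and the log2 fold change was 0.08 (SE 0.08).

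Sirtuins are deacylases that use NAD, with SIRT6 and SIRT7 in the nucleus, SIRT3 and SIRT5 mainly in mitochondria, and SIRT2 mainly in the cytoplasm. Sirt7, whose protein is enriched in the nucleolus, was at 28.3, 25.0, 25.6 and 27.8 CPM in saline and 26.0, 30.3, 38.3 and 34.3 CPM in METH rats. Of the METH rats, METH 1 lay within the saline range and METH 3 was highest. The log2 fold change of Sirt7 was 0.27 (SE 0.12, edgeR quasi-likelihood FDR 0.425, exact permutation p 0.0857), and without METH 3 it was 0.18. The other nuclear member, Sirt6, had a log2 fold change of 0.13 (SE 0.08), while the mitochondrial Sirt3 and Sirt5 were at -0.01 and 0.05, none past the test.

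Sirt2, known for its strong expression in myelinating oligodendrocytes, was the sirtuin with the most reads. It was at 279, 334, 281 and 295 CPM in saline and 321, 268, 360 and 269 CPM in METH rats. The spread within each group was wide and the groups overlapped, with a log2 fold change of 0.03 (SE 0.10). The 4 rats with the highest Sirt2 (METH 3, saline 2, METH 1 and saline 4) were also the 4 with the highest summed oligodendrocyte markers. This is a description over 8 rats, in which both values come from the same libraries.

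**Figure D4:**
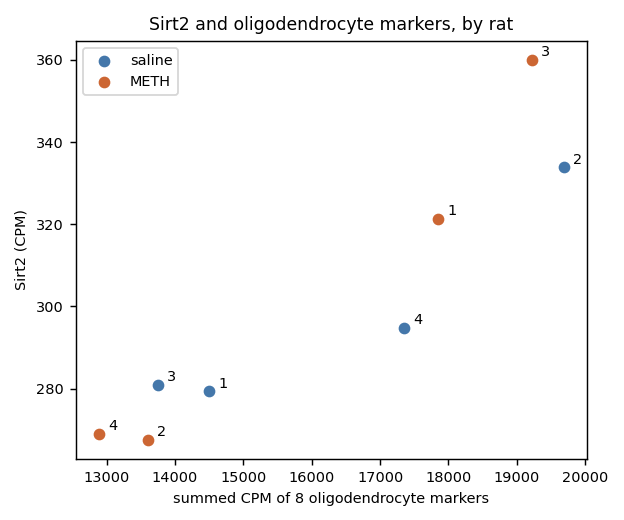
Sirt2 level in CPM against the summed CPM of 8 oligodendrocyte markers in each of the 8 rats, numbered as labelled, with saline in blue and METH in orange and axes that do not start at 0. Rats of both groups lie at both ends: Sirt2 is 268 CPM in METH 2 and 360 CPM in METH 3, with marker sums of 13611 and 19216 CPM.

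Among the acetyltransferases, Crebbp, the coactivator recruited by CREB, was at 58.9, 53.7, 57.1 and 58.2 CPM in saline and 60.4, 73.5, 75.6 and 60.4 CPM in METH rats. The groups did not overlap, but METH 1 and METH 4 were just above the saline range and METH 2 and METH 3 well above it. The means were 57.0 ± 2.29 and 67.5 ± 8.19 CPM (SD, n = 4 each), and the log2 fold change was 0.24 (SE 0.09, 95% interval 0.04 to 0.44, edgeR quasi-likelihood FDR 0.358, exact permutation p 0.0286). With each rat left out in turn, it ran from 0.19 without METH 3 to 0.29 without METH 4. Kat2a, the catalytic subunit of SAGA-type complexes, was at 104, 99.3, 110 and 103 CPM in saline and 97.0, 118, 125 and 109 CPM in METH rats. Its METH rats lay on both sides of the saline range, and its log2 fold change was 0.11 (SE 0.09). The MYST-family genes Kat5 and Kat6a had negative log2 fold changes of -0.12 (SE 0.08) and -0.20 (SE 0.11), neither past the test. Of the 4 acetyltransferases measured, 2 thus had positive and 2 negative fold changes.

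Rcor1 encodes CoREST, the scaffold that joins the demethylase LSD1 (Kdm1a) to HDAC1 and HDAC2. It was at 25.4, 23.6, 24.3 and 26.9 CPM in saline and 30.1, 28.3, 31.0 and 30.5 CPM in METH rats. Every METH rat was above every saline rat, with a gap between 26.9 and 28.3 CPM. The means were 25.1 ± 1.43 and 29.96 ± 1.19 CPM (SD, n = 4 each), METH was higher by 19.5%, and the log2 fold change was 0.26 (SE 0.09, 95% interval 0.06 to 0.45, edgeR quasi-likelihood FDR 0.310, exact permutation p 0.0286). With each rat left out in turn, it lay between 0.23 and 0.29. Among the partners of CoREST, the log2 fold changes were 0.06 (SE 0.08) for Kdm1a, -0.25 for Hdac1 and 0.03 for Hdac2, none past the test.

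The histone demethylases remove methyl groups from lysines. Kdm5b, an H3K4 demethylase with the most reads of this group, was at 100, 101, 118 and 106 CPM in saline and 112, 119, 101 and 106 CPM in METH rats. Both groups covered the same range, with a log2 fold change of 0.04 (SE 0.08). Kdm4a and Kdm2b had log2 fold changes of 0.11 and -0.04, and 4 of the 5 genes of the group, Rcor1 included, were positive.

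The writers of H3K9 methylation, a mark of silent chromatin, include the partners GLP (Ehmt1) and G9a (Ehmt2). Ehmt2 was at 387, 374, 362 and 363 CPM in saline and 358, 440, 438 and 393 CPM in METH rats. The METH rats METH 2, METH 3 and METH 4 were above all saline rats, and METH 1 was below them all. The means were 371.8 ± 11.6 and 407.3 ± 39.2 CPM (SD, n = 4 each), and the log2 fold change was 0.13 (SE 0.08, edgeR quasi-likelihood FDR 0.537). Ehmt1, whose protein works in a complex with that of Ehmt2, had a log2 fold change of -0.15 (SE 0.12). Setdb1 and Suv39h1 were at 0.05 and -0.02, and none of the 4 writers passed the test.

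Polycomb repressive complex 2 methylates H3K27, with EZH1 or EZH2 as its catalytic subunit and EED as a core partner. Ezh1, the form that predominates in mature neurons, was at 92.9, 91.2, 98.2 and 93.7 CPM in saline and 99.0, 95.6, 97.8 and 91.6 CPM in METH rats. These rats lay within a narrow band, and the log2 fold change of 0.03 had the smallest SE of the enzyme genes (0.07, 95% interval -0.12 to 0.18). Ezh2 and Eed had log2 fold changes of -0.11 (SE 0.15) and -0.04 (SE 0.10), neither past the test.

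DNA methyltransferases and methyl-CpG readers were likewise without a call. Dnmt1, the maintenance methyltransferase, was at 38.3, 40.6, 49.6 and 41.6 CPM in saline and 38.8, 39.8, 40.8 and 37.4 CPM in METH rats. The groups overlapped, with saline 3 highest, and the log2 fold change was -0.12 (SE 0.09). Dnmt3a, a de novo methyltransferase, was at 27.3 to 38.2 CPM in saline and 30.1 to 37.4 CPM in METH rats, with a log2 fold change of 0.09 (SE 0.12). Dnmt3b was listed with 4 to 24 reads per rat, and at a log2 fold change of 0.14 with an SE of 0.58 a difference was not detectable at this depth. Mbd2, a reader that recruits a deacetylase complex to methylated CpG, was at 73.2, 90.2, 79.0 and 86.6 CPM in saline and 89.6, 94.9, 101 and 75.5 CPM in METH rats. METH 1 and METH 4 lay within the saline range, and the log2 fold change was 0.13 (SE 0.10), while that of Mbd1 was 0.00 (SE 0.09).

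A wider list of 117 other chromatin genes from the same pathways (complex subunits, readers, other methyltransferases and demethylases) was counted beside the 45. The table lists 97 of them, 6 under an older symbol, and 93 were tested. Of these 93, 2 were called higher and 0 lower by edgeR, beside the 0.516% of all genes. At an unadjusted p under 0.05 there were 9 higher and 2 lower, beside 6.26% and 4.88% of all genes, and DESeq2 called 4, beside 1.58%. Both called genes belong to the Jumonji family. Kdm6b, an H3K27 demethylase induced by many stimuli, was at 37.2, 35.3, 36.8 and 29.5 CPM in saline and 44.6, 54.2, 63.2 and 55.3 CPM in METH rats. Kdm6b rose in METH rats without overlap, with a log2 fold change of 0.65 (SE 0.11, edgeR quasi-likelihood FDR 0.0185). Jmjd6, known as a lysyl hydroxylase of splicing factors, was at 19.8, 19.8, 21.2 and 20.6 CPM in saline and 28.6, 28.4, 33.7 and 26.4 CPM in METH rats. Jmjd6 rose by a log2 fold change of 0.52 (SE 0.10, edgeR quasi-likelihood FDR 0.0359), again without overlap. The call of Kdm6b was lost without saline 2, saline 4, METH 3 or METH 4, with FDR values of 0.0655, 0.0723, 0.0530 and 0.0584. Jmjd6 stayed called only when METH 4 was dropped (FDR 0.0458). Dropping any other rat, saline or METH, lost its call, with FDR values from 0.0610 (without METH 1) to 0.116 (without saline 2). No gene of the wider list was called by edgeR without saline 2, saline 4 or METH 3.

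**Figure D5:**
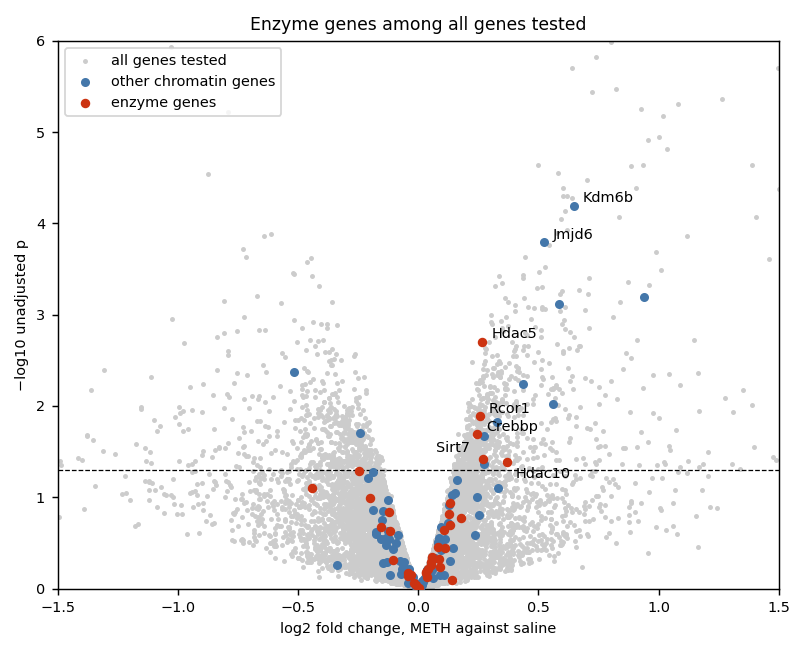
Log2 fold change of METH against saline and −log10 of the unadjusted p for all genes tested (grey), the other chromatin genes (blue) and the 35 enzyme genes (red) in the edgeR quasi-likelihood fit, with a dashed line at the 0.05 level; 42 genes fall outside the axes. Kdm6b and Jmjd6 stand above every enzyme gene, of which Hdac5 is the highest.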

How the data were processed

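Striatal mRNA was sequenced from 4 saline and 4 METH rats with a poly(A)-based TruSeq kit. The authors used cutadapt 1.18 for trimming, STAR 2.7.0e for alignment to rn6 and featureCounts (Subread 1.6.4) for counting, and deposited raw counts per gene symbol, 1 column per rat. The annotation and strand setting are not given in the sources used here, so near-identical copies and overlapping or antisense genes are uncertain.

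From these counts, R 4.3.3 with edgeR 4.0.16 (filterByExpr, minimum count 10; TMM scaling; quasi-likelihood F-test over every gene kept), DESeq2 1.42.0 and limma 3.58.1 gave all values. CPM are TMM-scaled, with a prior count of 2 on the log2 scale. The SE is the log2 fold change divided by the root of F. The fit was tested on simulated data. Intervals of log2 fold changes come from the fit and include the spread between rats, while the detection floor of 3 counts (0.141 to 0.165 CPM) covers counting error only. No 2 rats of a group were alike within counting error (chi-square over degrees of freedom 10.4 to 28.6).

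Per-rat values are given for enzyme genes at an unadjusted p under 0.05 or called by any test, and for the one with the most reads in each role group; wider-list genes are named when called. Hdac1, Hdac4, Hdac9 and Dnmt3a and other genes named outside this rule were picked with their values in view. The members, lists and tests were chosen with earlier results of these data known. Alternatives were other scalings, tests, filters and thresholds, each rat left out, and the rat number as a block. Promoter windows came from RefSeq (GRCr8). Protein sequences were not used here.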

Additional observations from a re-analysis of the deposited data

Results flagged for a closer look

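In groups of 4 rats, the highest or lowest rat was compared with the nearest other rat by Dixon's criterion. For enzyme genes, the gap and the range were taken on log2 CPM, while levels are printed as CPM. Of 70 such groups over the enzyme genes, 2 were past it, and about 5% are expected by chance. Sirt3 was 96.7 CPM in METH 3, against 79.4 to 81.2 CPM in the other METH rats, a gap of 0.88 of the group's range. Kdm4a was 62.4 CPM in METH 1, against 75.5 to 77.3 CPM in the other METH rats, a gap of 0.891 of the range. Of 8 groups over library measures, 1 was past it: on the first principal component METH 3 was apart from the other METH rats by 0.872 of the range.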

How the results depend on the processing

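The count of enzyme genes called stayed at 0 in every alternative except DESeq2, which called 1 (Hdac5). With total-count scaling, 3 enzyme genes were higher and 1 (Hdac1) lower at an unadjusted p under 0.05, 1 (Kat5) was lower without overlap, and the median log2 fold change was 0.02 (0.01616), with that of all genes at -0.04. With limma-voom, 1 enzyme gene was lower at that p. The shares of all genes at that p or without overlap were not counted with total-count scaling or limma-voom. Calls in the wider list became 4 with DESeq2, the likelihood ratio test or an FDR of 0.10, the added genes being Dot1l and Gadd45g. No pairing of the rats by number was seen over all genes (correlations of same-numbered deviations between -0.201 and 0.0355). With the number as a replicate block, calls over all genes went from 62 to 37, enzyme genes stayed at 0 and the wider list fell to 0 (Kdm6b at an FDR of 0.0912, Jmjd6 at 0.140). Over all genes DESeq2 called 186, the likelihood ratio test 170 and the FDR of 0.10 gave 100.

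With each rat left out in turn, enzyme genes at an unadjusted p under 0.05 were 2 to 5 higher and 0 to 1 lower. Those without overlap were 3 to 5 higher and 0 to 1 lower, and wider-list calls were 0 to 2. The shares of all genes at that p or without overlap were not counted in these fits. Of 35 enzyme genes, 23 kept their direction in all 17 alternatives and 12 did not. Mbd1 reversed with upper-quartile scaling (-0.006422), total counts (-0.03531), limma-voom (-0.001336) and the replicate block (-0.0006112), and with total counts so did Hdac2 (-0.001436), Sirt2 (-0.003622) and Ezh1 (-0.006047). With a rat left out, log2 fold changes crossed 0 for Hdac3 (-0.08045 to 0.01011), Hdac4 (-0.01418 to 0.2602), Sirt2 (-0.05532 to 0.09538), Sirt3 (-0.07951 to 0.03055), Dnmt3b (-0.1657 to 0.7583), Mbd1 (-0.04827 to 0.05629), Suv39h1 (-0.07373 to 0.03966), Eed (-0.08396 to 1.921e-05), Kdm2b (-0.1243 to 0.04902) and Kdm5b (-0.001589 to 0.09595). The cause of these changes was not tested. Dnmt3b had too few reads for a difference of ordinary size to be detectable.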
